A study of Mus musculus with 6 samples.

Results

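The 10 genes described here encode the transcription factor NRF2 (Nfe2l2), its inhibitor KEAP1 (Keap1), and enzymes and transporters of the antioxidant defence: Nqo1, Osgin1, Abcc1, Abcc4, Cat, Sod1, Sod2 and Blvrb. They were chosen by symbol, as every probe set that the array annotation assigns to one of these genes alone, which gave 21 of the 45037 probe sets tested and 10 of 18193 genes. All cells were of the mouse line CT26, a colon carcinoma from the BALB/c strain. The shSep15 group (3 samples) had been transfected with pU6-m3, a vector that here expressed an shRNA to knock down Sep15, a selenoprotein of the endoplasmic reticulum now named Selenof. The control group (3 samples) had been transfected with the same vector without an insert. The hairpin was built on 19 bases of the Sep15 cDNA, shown because this single construct defines the shSep15 group.
shSep15 target: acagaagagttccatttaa

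NRF2 is a basic leucine zipper factor that binds antioxidant response elements together with a small MAF protein. KEAP1 holds it in an ubiquitin ligase built on cullin 3 and so keeps its protein level low, and electrophiles or peroxides that modify cysteines of KEAP1 let NRF2 accumulate. NRF2 activity is therefore set largely at the protein level, which these arrays did not measure. In many tumours the pathway is switched on by mutation of either gene. Superoxide dismutases turn superoxide into hydrogen peroxide, and catalase breaks hydrogen peroxide down.

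The RNA of each sample was read on its own Affymetrix Mouse430_2 array, and values are log2 RMA values, in which a difference of 1 is a 2-fold change. A probe set was called when the adjusted p of limma was under 0.05, with differences taken as shSep15 minus control. A gene is represented by its brightest probe set, and the background level of 6.02 is the 95th percentile of probe sets for odorant and vomeronasal receptors. The brighter probe set of Selenof averaged 9.48 ± 0.13 in shSep15 cells and 12.40 ± 0.05 in control cells (SD, n = 3 each), a log2 difference of −2.92 (SE 0.08, limma adjusted p = 2.43e-07). Array medians lay between 5.83 and 5.87, and mean correlations with the other group were 0.977 to 0.979. Control 3 read 8.31 on the 18S ribosomal RNA probe set nearest the 3′ end, against at most 6.53 on the shSep15 arrays and 6.33 on the other control arrays. Of 10 epithelial markers 6 were near background in both groups, among them Cdh1, Cdx2 and Vil1. The other 4 were Epcam, Krt8, Krt18 and Krt20, with control means of 7.59, 6.07, 6.65 and 8.28. Their shSep15 means were 7.55, 6.06, 4.48 and 6.15, so that Krt18 lay under the background level in shSep15 cells. The label of a colon carcinoma thus rests on few markers here. Marker lists moved between the groups, where 25% of all genes were called, and their part in the results below was not tested. For the epithelial list, of which 2 were called lower, the summed signal (log2) was 8.98 to 9.26 on shSep15 and 9.65 to 9.91 on control arrays. The 2 were Krt18 (−2.16) and Krt20 (−2.13). For 8 mesenchymal markers, 4 called higher and 2 lower, the summed signal was 14.66 to 14.82 on shSep15 and 14.50 to 14.59 on control arrays. This sum mostly reflects the brightest markers. The 4 rose by 0.23 to 1.35, and the 2 lower were Pdgfrb (−3.36) and Col3a1 (−2.27). For 7 leukocyte markers, 3 called lower, the summed signal was 8.46 to 8.57 on shSep15 and 8.86 to 9.16 on control arrays. Ptprc lay under the background level in both groups. None of 5 endothelial markers was called by limma, nor did any have an unadjusted p under 0.05. The labels do not say whether the 3 samples of a group came from separate transfections, or from clones or pools, so p-values measure only the spread between these samples, and with 1 hairpin they do not cover differences between constructs.

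Of the 10 genes, 4 rose in shSep15 cells (Keap1, Abcc1, Cat and Sod2), 1 fell (Abcc4) and 5 did not pass the test. The greatest difference was the fall of Abcc4 to 34.8% of the control signal, and the next was a 1.64-fold rise of Sod2. The share of genes called over the whole array was 25%, with 12.2% called higher and 12.8% called lower, and among genes above the background level 39.2% were called. Of the 10 genes 9 lay above background, all 5 called genes among them, and with so few genes no difference from that share is read from the count. The count of genes called fell to 3 without any 1 of shSep15 replicates 1, 2 and 3 or control replicate 2, and to 2 without control replicate 3. Over the whole array the count fell too, from 4543 genes to between 3497 (without shSep15 replicate 3) and 4191 (without control replicate 3). The groups did not overlap in 7 of the 10 genes, against 38.1% of all genes. At the level of probe sets 10 of 21 were called, 8 higher and 2 lower, against 19.4% of all probe sets (9.71% higher and 9.66% lower). The number of probe sets called was 6 without shSep15 replicate 3 or control replicate 3. The groups did not overlap in 13 of the 21 probe sets, against 31.7%. Of the 21 probe sets 18 lay above background, whereas the shares for probe sets and for overlap include dim ones. Every Sod2 probe set and both of Cat were among the 10 called. No excess over the whole array is therefore read from these counts. The median difference over the 10 genes was −0.01, against 0.01 over all genes.

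**Figure D1:**
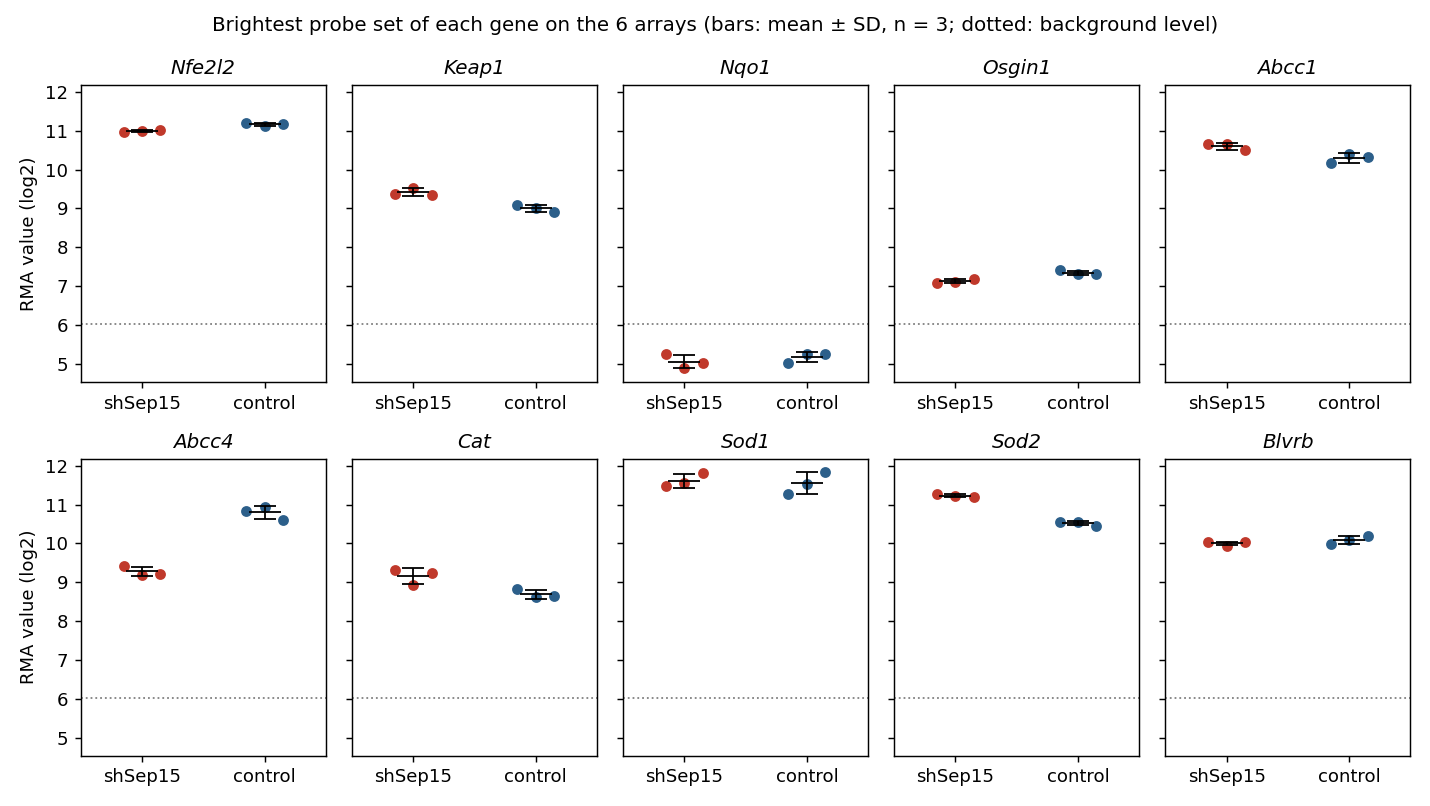
RMA value (log2) of the brightest probe set of each of the 10 genes, with one point per array, shSep15 arrays left of control arrays, and bars for the mean ± SD (n = 3). Abcc4 and Sod2 show the widest separation, and Nqo1 lies under the dotted background level of 6.02 on all 6 arrays.

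Nfe2l2 mRNA was lower in shSep15 cells on both of its probe sets, though only slightly on the bright one. Only the dim probe set passed the test. The bright probe set, 1416543_at, read 10.96, 10.99 and 11.03 on the shSep15 arrays, against 11.21, 11.12 and 11.16 on the control arrays. The groups did not overlap, but the difference of −0.17 (SE 0.06, limma adjusted p = 0.109) missed the threshold. The dim probe set, 1457117_at, read 6.26, 6.09 and 6.04 in shSep15 cells, against 7.06, 6.67 and 6.65 in control cells. Here the shSep15 values lay just above the background level, and the difference of −0.66 (SE 0.14) passed the test (limma adjusted p = 0.0093). With the mean of both probe sets as the value of the gene, the difference was −0.42 (limma adjusted p = 0.00857), so the call of Nfe2l2 depends on how its probe sets are combined.

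The Nfe2l2 gene is known to be a target of its own product. The 250 bases before each start in the RefSeq promoter table (build GRCm38.p6) were searched on both strands for the antioxidant response element core, TGACNNNGC. It was found in 3 of the 9 members with an entry, Nfe2l2, Abcc4 and Sod1, against 11.5% of 27025 genes, and in 8 of 31 other NRF2 targets with an entry. The AP-1 site TGANTCA, which can share letters with the element, was found in Osgin1 alone of the 9, against 7.82% of genes. A match describes letters in a window and does not show binding, and elements farther from a start were not searched. The Nfe2l2 window holds 1 match, which ends 232 bases before the start and is printed in capitals.
Nfe2l2, chr2:75704664-75704913, minus strand: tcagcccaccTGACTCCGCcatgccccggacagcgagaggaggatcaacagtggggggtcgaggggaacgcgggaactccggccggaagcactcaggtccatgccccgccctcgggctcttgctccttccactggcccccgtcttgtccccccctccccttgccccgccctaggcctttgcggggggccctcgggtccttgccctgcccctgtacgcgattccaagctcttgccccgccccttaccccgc

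Keap1, the adaptor that recruits NRF2 to the ligase, moved the other way. Its brighter probe set, 1450746_at, read 9.38, 9.54 and 9.35 in shSep15 cells, against 9.10, 9.00 and 8.90 in control cells. Every shSep15 array lay above every control array, and the rise was 0.42 (SE 0.10, limma adjusted p = 0.0181), or 1.34-fold. The other probe set, 1450747_at, also did not overlap, with 8.28, 8.26 and 8.35 in shSep15 cells and 7.98, 8.14 and 8.02 in control cells, but its difference of 0.25 was not called (limma adjusted p = 0.159). The call of Keap1 was lost without shSep15 replicate 2, control replicate 2 or control replicate 3 (limma adjusted p of 0.075, 0.055 and 0.0544). The mean difference then lay between 0.37 and 0.43.

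**Figure D2:**
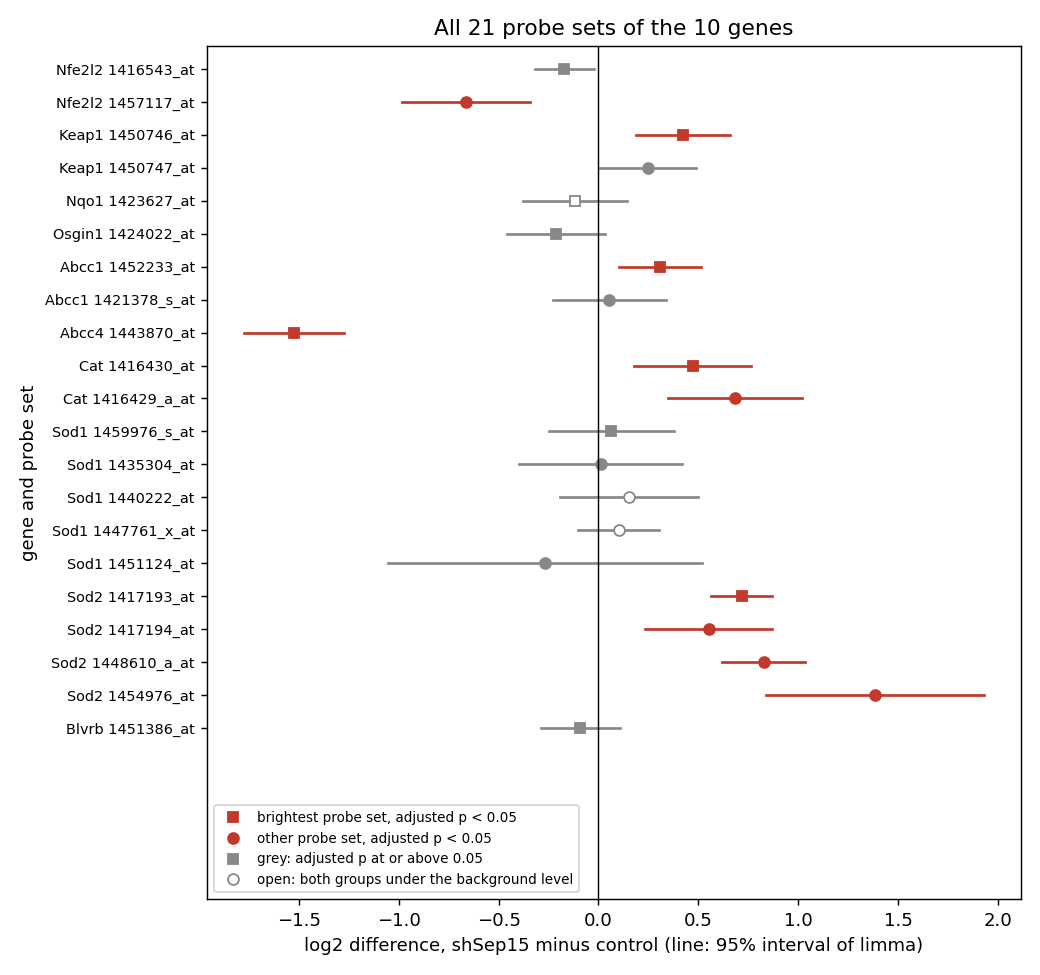
Log2 difference (shSep15 minus control) of all 21 probe sets, with the 95% interval of limma as a line, squares for the brightest probe set of a gene, red for an adjusted p under 0.05, grey for others and open symbols for probe sets near background in both groups. All 4 Sod2 probe sets and both Cat probe sets are red and right of 0, and Abcc4 lies farthest left, at −1.52.

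Of 16 regulators and partners of NRF2 and KEAP1, 9 were called, 3 higher and 6 lower. Over the whole array 25% of genes were called, 12.2% higher and 12.8% lower, and 39.2% of those above background, a level that 15 of the 16 reached. The median difference was −0.28, against 0.01 over all genes. The ligase scaffold Cul3 rose by 0.54 (SE 0.13, limma adjusted p = 0.0173), to 11.22, 10.81 and 10.88 in shSep15 cells, against 10.64, 10.26 and 10.39 in control cells. All 4 other probe sets of Cul3 were higher as well, by 0.26 to 0.46, and 1 of them was called. The call was lost without shSep15 replicate 1, control replicate 2 or control replicate 3 (limma adjusted p of 0.0603, 0.0751 and 0.0587), and with the mean of the probe sets (0.37, limma adjusted p = 0.0588).

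The mRNAs of all 3 small MAF proteins, the partners with which NRF2 binds DNA, fell. Maff fell by 1.37 (SE 0.10, limma adjusted p = 2.33e-05), reading 9.18, 9.11 and 9.05 in shSep15 cells and 10.52, 10.60 and 10.34 in control cells. Mafg fell by 0.61 (SE 0.09, limma adjusted p = 0.0015), and its other probe set above background fell as well, by 1.14. Mafk, named after its value was seen, fell by 0.61 (SE 0.11, limma adjusted p = 0.00402). None of the 3 showed any overlap between the groups.

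Bach1, a repressor that competes with NRF2 for the same elements, fell by 1.03 (SE 0.13, limma adjusted p = 0.000624), with 8.26, 8.18 and 8.51 in shSep15 cells and 9.53, 9.33 and 9.17 in control cells. Its other probe set was near background in both groups, and with the mean of both the difference was −0.62 (limma adjusted p = 0.0167). Sqstm1, the autophagy receptor p62 that binds KEAP1 and is itself a target of NRF2, fell by 0.89 (SE 0.05, limma adjusted p = 5.41e-06). It read 12.27, 12.28 and 12.27 in shSep15 cells, against 13.24, 13.09 and 13.17 in control cells, and its other probe set fell by 0.62. Nfe2l1, the NRF2 relative that drives proteasome genes, fell by 0.80 (SE 0.09, limma adjusted p = 0.000292) and was named after its value was seen. Against these falls, Park7, a redox-sensitive protein reported to stabilise NRF2, rose by 0.94 (SE 0.07, limma adjusted p = 2.75e-05), and its other probe set by 1.00. Palb2, a repair protein that can bind KEAP1, rose by 0.92 (SE 0.20, limma adjusted p = 0.00991). Its only probe set read 7.44, 7.01 and 6.95 in shSep15 cells and 5.87, 6.56 and 6.22 in control cells. These control values lie near the background level, so the size of the rise is not exact.

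Nqo1, the quinone reductase that is widely used as a readout of NRF2, gave no signal above background in either group. Its single probe set, 1423627_at, read 5.24, 4.90 and 5.02 in shSep15 cells and 5.03, 5.24 and 5.24 in control cells, all under 6.02. The difference of −0.12 (95% interval −0.38 to 0.15, limma adjusted p = 0.587) therefore bounds only what this dim probe set can show. Osgin1, an oxidative stress-induced growth inhibitor, read 7.08, 7.11 and 7.19 in shSep15 cells and 7.41, 7.31 and 7.31 in control cells. The groups did not overlap, and the difference of −0.21 (95% interval −0.46 to 0.03) was not called (limma adjusted p = 0.242). Blvrb, which reduces biliverdin and flavins, read 10.03, 9.95 and 10.03 in shSep15 cells and 9.99, 10.10 and 10.19 in control cells. Here the groups overlapped, and the 95% interval of −0.29 to 0.11 around a difference of −0.09 bounds the change on this probe set (limma adjusted p = 0.574).

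The pair of ATP-driven exporters moved apart. Abcc4, or MRP4, which exports cyclic nucleotides and prostaglandins, read 9.41, 9.20 and 9.22 in shSep15 cells, against 10.84, 10.95 and 10.61 in control cells. The groups lay more than a log2 unit apart, and the fall of 1.52 (SE 0.11, limma adjusted p = 2.47e-05) was 2.88-fold. The gene has 1 probe set, 1443870_at, so no other probe set could be set beside it. Among its 10 nearest genes above background on chromosome 14, 3 were higher and 2 lower, with a median of 0.04. Of all genes above background 39.2% were called in either direction. The promoter table gives Abcc4 a window for each of 2 starts, shown because this gene had the greatest change. Each holds 1 antioxidant response element core, in capitals, which ends 17 and 15 bases before the start.
Abcc4, first start, chr14:118706220-118706469, minus strand: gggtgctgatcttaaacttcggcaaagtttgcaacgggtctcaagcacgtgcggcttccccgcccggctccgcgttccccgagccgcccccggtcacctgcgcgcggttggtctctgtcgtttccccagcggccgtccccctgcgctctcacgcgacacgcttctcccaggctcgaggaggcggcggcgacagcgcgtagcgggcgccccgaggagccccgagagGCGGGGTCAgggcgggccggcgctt
Abcc4, second start, chr14:118676932-118677181, minus strand: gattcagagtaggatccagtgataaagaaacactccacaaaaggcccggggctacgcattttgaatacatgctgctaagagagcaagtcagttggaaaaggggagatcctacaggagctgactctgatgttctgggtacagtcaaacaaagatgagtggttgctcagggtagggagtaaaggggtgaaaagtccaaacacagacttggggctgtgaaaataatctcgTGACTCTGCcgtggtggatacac

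Abcc1, or MRP1, which exports glutathione conjugates, read 10.66, 10.65 and 10.50 on its brighter probe set (1452233_at) in shSep15 cells, against 10.17, 10.41 and 10.31 in control cells. The groups did not overlap, and the difference of 0.31 (SE 0.09, limma adjusted p = 0.0427) passed narrowly. The other probe set, 1421378_s_at, read 8.66, 8.47 and 8.29 in shSep15 cells and 8.41, 8.33 and 8.51 in control cells, with overlap and a difference of 0.05 (limma adjusted p = 0.84). The call of Abcc1 was lost without any 1 of shSep15 replicates 1, 2 and 3 or control replicates 1 and 3 (limma adjusted p from 0.0569 to 0.143), and with the mean of its probe sets (0.18, limma adjusted p = 0.199). Of 8 other ABCC transporters 4 were near background, and only Abcc5, which exports cyclic nucleotides, was called. It fell by 0.43 (SE 0.10, limma adjusted p = 0.0136), and 2 of its 6 other probe sets above background were called lower too. The differences of those 6 ran from −0.63 to 0.09. The call of Abcc5 was lost without control replicate 2 (limma adjusted p = 0.0515) and with the mean of its probe sets (−0.16, limma adjusted p = 0.201).

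The mitochondrial manganese dismutase Sod2 rose on all 4 of its probe sets. The brightest, 1417193_at, read 11.26, 11.23 and 11.20 in shSep15 cells, against 10.54, 10.55 and 10.46 in control cells. Arrays of a group lay within 0.1 of each other here, and the rise of 0.72 (SE 0.07, limma adjusted p = 9.97e-05) was far larger than that spread. Probe set 1448610_a_at read 10.73, 10.85 and 10.82 in shSep15 cells and 9.95, 10.13 and 9.85 in control cells, a rise of 0.83 (SE 0.09, limma adjusted p = 0.000263). Probe set 1454976_at, with 9.09, 8.48 and 8.34 in shSep15 cells and 7.66, 7.26 and 6.84 in control cells, gave the largest rise and the widest spread, at 1.38 (SE 0.24, limma adjusted p = 0.00315). The dimmest, 1417194_at, lay near the background level and rose by 0.55 (SE 0.14, limma adjusted p = 0.0227). Its call was lost without shSep15 replicate 1 or 3 or control replicate 1 or 3 (limma adjusted p from 0.0624 to 0.0941).

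Sod2 is known to be induced by interferon and NF-κB signals, so lists of both kinds are given array by array. The median of 15 interferon-stimulated genes, relative to the control mean, was −0.19, 0.03 and 1.49 on shSep15 arrays 1, 2 and 3, against 0.10, −0.05 and −0.05 on the control arrays. Only shSep15 3 was high in that list. The rise of the brightest Sod2 probe set was 0.73 (limma adjusted p = 0.00126) without shSep15 replicate 3, against 0.72 with all arrays, and the part of interferon signals in it was not tested. With all arrays 1 of 18 interferon-stimulated genes was called, against 25% of all genes. It was Ifit2, which rose by 0.60 (limma adjusted p = 0.00521). With shSep15 3 apart from the other arrays, a gene not called is not shown to be unchanged. Without shSep15 replicate 3, 4 were called, 1 higher and 3 lower. The median of 6 NF-κB targets was −0.36, −0.30 and −0.23 on the shSep15 arrays and 0.12, −0.05 and −0.08 on the control arrays. Of 8 measured targets 2 were called, against 25% of all genes, and nothing is read from that count. Relb fell by 1.33 (limma adjusted p = 0.000293) and Tnfaip3 rose by 0.71 (limma adjusted p = 0.00317). The other probe set of Tnfaip3, also above background, differed by 0.25 and was not called. Without control replicate 3, 1 target was called higher and 3 lower. Sod2 lies on chromosome 17, where 177 of 561 genes above background rose and 47 fell, with a median of 0.16. Over all chromosomes 2138 of 11115 rose and 2218 fell, with a median of 0.01. Other chromosomes were uneven too. Chromosome 3, which carries Gclm (described below), had 231 higher and 67 lower, and chromosome 18 had 16 higher and 123 lower. Of the 10 genes above background nearest to Sod2, 3 rose and 2 fell, with a median of 0.16. Among all genes above background 39.2% were called in either direction. The part of the chromosome in the rise of Sod2 was not tested.

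**Figure D3:**
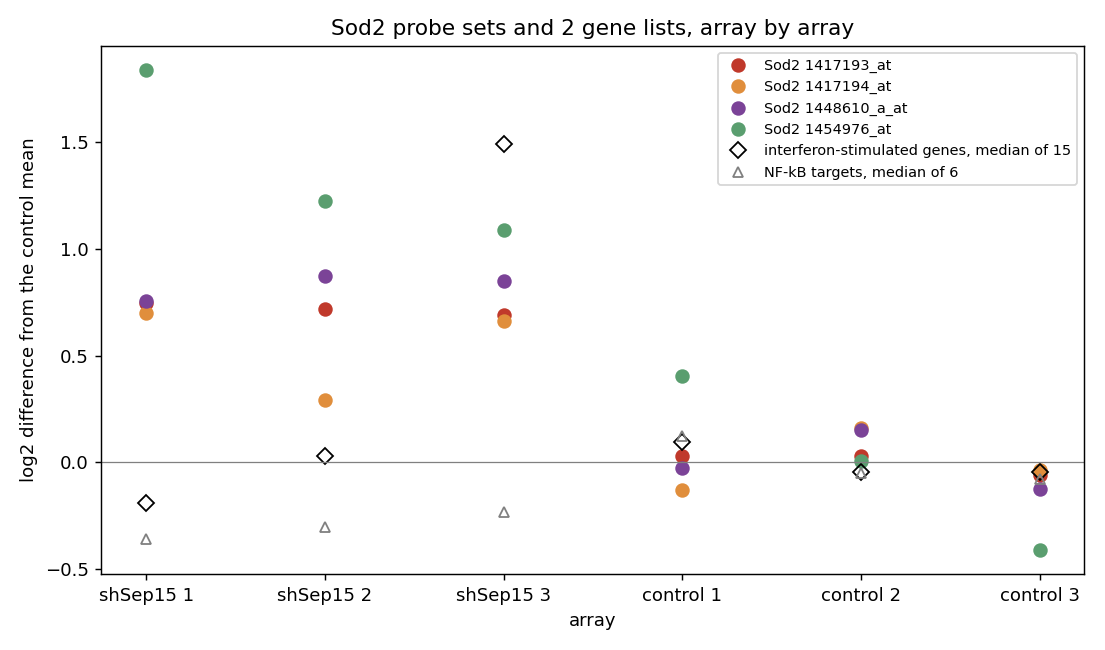
Log2 difference from the control mean on each array for the 4 Sod2 probe sets (filled circles), the median of 15 interferon-stimulated genes (open diamonds) and the median of 6 NF-κB targets (open triangles). All Sod2 points of the shSep15 arrays lie above 0, and the interferon median is high only on shSep15 3, at 1.49.

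Catalase, the peroxisomal enzyme, rose on both probe sets, more on the dimmer one. Probe set 1416430_at read 9.33, 8.93 and 9.24 in shSep15 cells, against 8.82, 8.62 and 8.64 in control cells. The groups did not overlap, shSep15 2 lay closest to the controls, and the rise was 0.47 (SE 0.13, limma adjusted p = 0.0317). Probe set 1416429_a_at read 8.98, 8.54 and 8.87 in shSep15 cells and 8.24, 8.20 and 7.91 in control cells, a rise of 0.68 (SE 0.15, limma adjusted p = 0.0101). The call on the first was lost without shSep15 replicate 1 or 3 or control replicate 2 or 3 (limma adjusted p from 0.0877 to 0.12), and that on the second without shSep15 replicate 3 (limma adjusted p = 0.0512). Of the 10 nearest genes above background on chromosome 2, 0 were called higher and 2 lower, against 39.2% of such genes called in either direction.

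Sod1, the cytosolic copper-zinc dismutase, was called on none of its 5 probe sets by limma, nor did any have an unadjusted p under 0.05. The brightest, 1459976_s_at, read 11.48, 11.55 and 11.81 in shSep15 cells and 11.27, 11.53 and 11.83 in control cells, fully overlapping, with a difference of 0.07 (95% interval −0.25 to 0.38). Probe set 1451124_at had 1 control array far from the rest: it read 11.05, 11.39 and 11.45 in shSep15 cells and 10.94, 11.20 and 12.56 in control cells, the last on control 3. Its difference was −0.27 (SE 0.35) with all arrays and 0.23 (limma adjusted p = 0.356) without control replicate 3. Control 3 is also the array with high 18S signal, and whether these go together was not tested. Of the other 3 probe sets, 1435304_at differed by 0.01 and the remaining pair lay near background. The Sod1 window holds an antioxidant response element core (capitals) that ends 48 bases before the start, and the Sod2 window holds none. Both are shown to set the dismutases side by side. Elements farther from a start were not searched, and the part of such elements in the values of either gene was not tested.
Sod1, chr16:90220512-90220761, plus strand: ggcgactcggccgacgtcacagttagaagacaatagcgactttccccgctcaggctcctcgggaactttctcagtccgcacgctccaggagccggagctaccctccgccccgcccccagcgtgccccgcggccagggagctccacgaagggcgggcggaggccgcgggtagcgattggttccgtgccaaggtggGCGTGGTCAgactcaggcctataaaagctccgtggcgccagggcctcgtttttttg
Sod2, chr17:13007589-13007838, plus strand: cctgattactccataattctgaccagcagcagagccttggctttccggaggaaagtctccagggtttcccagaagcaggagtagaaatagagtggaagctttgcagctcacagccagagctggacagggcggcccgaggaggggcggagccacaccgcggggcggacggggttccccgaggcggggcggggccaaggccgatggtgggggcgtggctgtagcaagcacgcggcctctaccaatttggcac

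Among other NRF2 targets the changes were split. Of 33 measured, 8 rose and 7 fell, 7 were near background in both groups, and the median was −0.04. The count of 15 called is to be read against 25% of all genes and 39.2% of those above background, and nothing particular to these targets is read from it. Without shSep15 replicate 2 or control replicate 2, 7 were called higher and 4 lower. Gclm, the modifier subunit of glutamate-cysteine ligase, rose by 1.75 (SE 0.09, limma adjusted p = 4.09e-06) and its other probe set by 2.06. Pgd of the pentose phosphate pathway rose by 1.14 on its brightest probe set, and its 3 other probe sets rose too. Mgst1, a membrane glutathione transferase, read 5.91, 5.81 and 6.45 in shSep15 cells and 4.59, 4.98 and 4.64 in control cells; the control values lie under the background level, so the size of its rise of 1.32 (limma adjusted p = 0.000783) is not exact; the mean with its other probe set, near background, gave 0.64 (limma adjusted p = 0.00205). Hmox1, a haem oxygenase that yields biliverdin, fell by 1.14 (SE 0.11, limma adjusted p = 0.000112).

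Other enzymes of superoxide, peroxide and quinone handling were split as well, with 3 of 10 higher, 2 lower and a median of 0.16, against 12.2% and 12.8% of all genes. Of the 10, 9 lay above background, where 39.2% of genes were called. Nothing particular to these enzymes is read from the count. Without shSep15 replicate 1 or 2, 2 were called higher and 1 lower. Nqo2, the relative of Nqo1 that uses dihydronicotinamide riboside, fell by 1.15 (SE 0.10, limma adjusted p = 8.3e-05). It read 8.82, 8.69 and 8.69 in shSep15 cells, against 9.85, 10.03 and 9.77 in control cells, and both other probe sets fell, by 1.08 and 1.38. Gpx1, the cytosolic glutathione peroxidase, rose by 0.94 (SE 0.07, limma adjusted p = 3.76e-05), and Prdx4, the peroxiredoxin of the endoplasmic reticulum, by 0.95 (SE 0.12, limma adjusted p = 0.000433). Gpx4, which reduces lipid hydroperoxides, fell by 0.25 (limma adjusted p = 0.0145), a call that was lost without shSep15 replicate 1 or 2 or control replicate 2 (limma adjusted p of 0.06, 0.0673 and 0.0514).

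**Figure D4:**
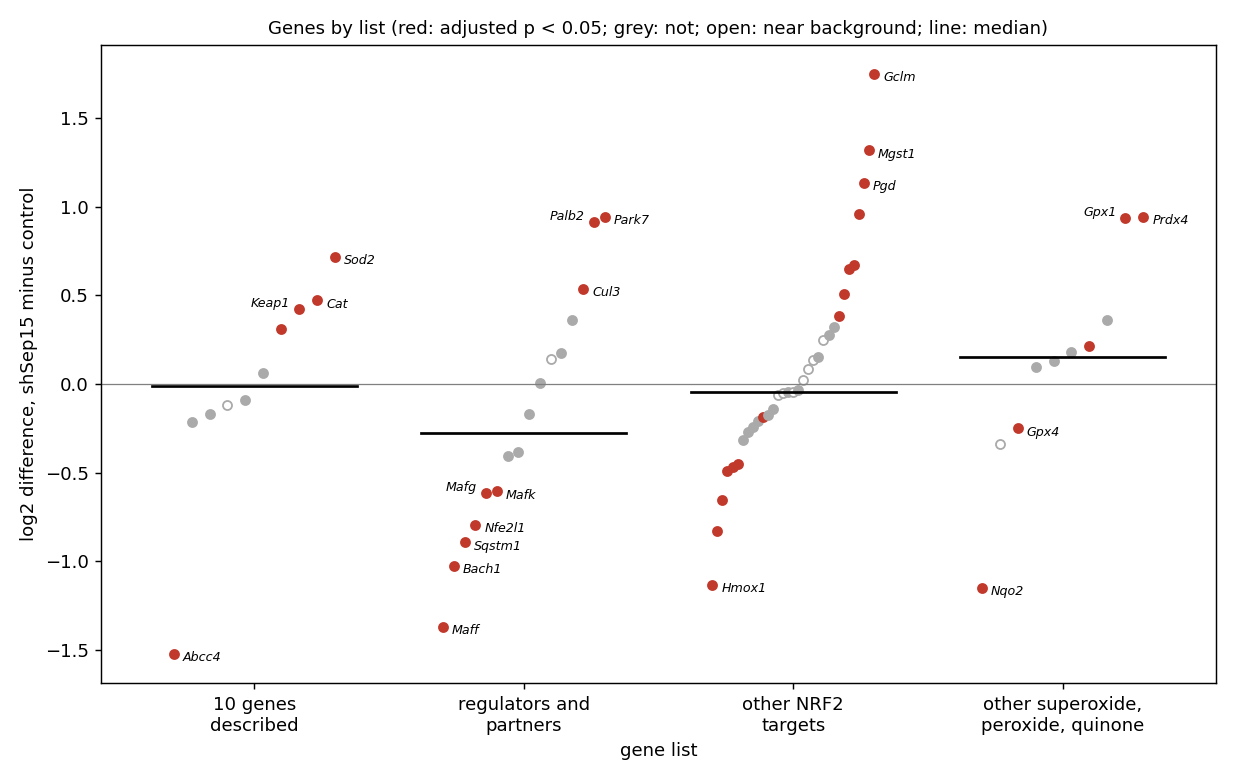
Log2 difference (shSep15 minus control) of each gene by its brightest probe set, in 4 lists, with red for an adjusted p under 0.05, grey for others, open symbols for genes near background and a line at the median of each list. The regulators and partners have the lowest median, at −0.28, and the other NRF2 targets reach from −1.14 (Hmox1) to 1.75 (Gclm).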

How the data were processed

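RNA of 6 CT26 samples was measured on Affymetrix Mouse430_2 arrays. The deposited values are log2 RMA values, 1 per probe set and array, per the submitters' processing notes, and ran from 3.31 to 14.24. The RMA version is not given in the sources used here. Normalization between arrays hides a change of total RNA per cell, and RMA compresses differences of dim probe sets. In bulk RNA, fewer cells of a kind and less RNA per cell cannot be told apart.

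The table lists 45101 probe sets, of which 64 array controls were left out. Genes were named from the platform annotation (34945 probe sets with 1 symbol, 932 with several, 9160 with none), updated by gene identifier through the RefSeq table of GRCm38.p6, in which 34741 of the 34945 were found. The arrays name no build, so that table gave only names, chromosomes and gene order, and promoters come from the RefSeq promoter table. A linear model of group alone was fitted per probe set in limma 3.58.1 (eBayes with intensity trend, R 4.3.3), with Benjamini-Hochberg adjustment over 45037 probe sets; 95% intervals are those of the fit. The fit was tested on simulated data. The background level used 80 receptor probe sets.

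The members and gene lists were chosen with earlier results of these data known. The rule for named genes took every member, the targeted gene, Cul3, Bach1, Mafg and Sqstm1, and up to 4 called genes of each list with the largest differences. Of the listed genes, 4 NRF2 targets, 2 other enzymes, 3 interferon-stimulated genes and 1 NF-κB target had no probe set of 1 symbol. Neighbours were the 5 nearest genes above background on each side, a view chosen after seeing the data. The 12 alternatives were each array left out, a replicate block, 2 other scalings, a filter on dim probe sets, no eBayes trend and the mean of a gene's probe sets.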

Additional observations from a re-analysis of the deposited data

How the results depend on the processing

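The direction of each called member gene was the same under the 12 alternatives, and Abcc4 and Sod2 also passed the threshold in all of them. The count of member genes called was 5 with all arrays and 2 to 4 with 1 array left out, and that of member probe sets was 10 and 6 to 8. Over all genes the count was 4543 with all arrays and 3497 to 4191 with 1 array left out. Abcc1 lost its call with the replicate block (limma adjusted p = 0.0506), with arrays shifted to the same median (0.0527) and without the eBayes trend (0.0622), and Gpx4 without the trend (0.0834) and with the mean of its probe sets (0.0673). The mean with its probe set near background gave −1.47 for Selenof, against −2.92 on the bright one. Among the lists, leaving out 1 array gave 11 to 14 other NRF2 targets (15 with all), 3 to 4 of the other superoxide, peroxide and quinone enzymes (5), 0 to 1 other ABCC transporters (1), 1 to 4 interferon-stimulated genes (1) and 2 to 4 NF-κB targets (2). The replicate block gave 2 interferon-stimulated genes, quantile normalization 4 NF-κB targets, the fit without trend 3 of the other enzymes, and the mean of probe sets 0 ABCC transporters and 5 NF-κB targets; the causes were not tested. Without 1 array the sign turned for 4 differences that were never called: Sod1 (−0.073 to 0.21), its probe sets 1435304_at (−0.14 to 0.18) and 1451124_at (−0.58 to 0.23), and Abcc1 1421378_s_at (−0.041 to 0.15). Deviations of samples with the same replicate number correlated at 0.38, −0.15 and −0.02, and those with different numbers at −0.36 to 0.37. The numbers were not taken as pairs, and the block gave 4591 genes called against 4543. The block lowered the SE of some genes, such as Cul3 from 0.13 to 0.077. It raised that of others, such as Nfe2l2 from 0.065 to 0.072. The 3 arrays per group limit precision, as does dim signal for Nqo1.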
